A study of Mus musculus with 12 samples.

Results

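Gabrr1, Gabrr2 and Gabbr2 encode subunits of receptors for GABA, the main inhibitory transmitter of the brain. The 3 genes were the rows of the deposited table whose Ensembl identifiers carry these symbols in the GRCm38 annotation, 3 of 56923 rows. They were chosen with earlier results of these data in view, among them the low value of Gabrr2 with L-fucose, so their levels and intervals are a description, and no call on them counts as evidence of a difference. RNA came from brain sections of wild-type (WT) mice that spent 5 hours in artificial cerebrospinal fluid (aCSF), the control group, or for the same time in aCSF to which L-fucose was added. L-fucose is a sugar found at the ends of many glycan chains. Each group had 6 libraries, named here by group and number, with 9191687 to 18563078 counted reads. Strain, age, brain region and sugar concentration were not stated. Nothing in the labels says whether the libraries of a group came from separate animals, so the spread between them may be in part technical. The row named Ddx3y, a gene of the Y chromosome, was at 1183.91 or more in aCSF 1, 4 and 5 and L-fucose 1, 3 and 5. Elsewhere it was at 6.08 or less (reads over a size factor). If that name holds, each group had both sexes and so more than 1 animal.

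GABA acts through receptors of 2 kinds. The ionotropic kind is a chloride channel built of 5 subunits, and the rho subunits encoded by Gabrr1 and Gabrr2 can form such channels on their own. Channels of rho subunits are best known from the retina, where bipolar cells carry them, and desensitize slowly. The metabotropic GABA-B receptor is an obligate pair of Gabbr1, which binds GABA, and Gabbr2, which couples to the G protein and brings the pair to the cell surface. GABA-B receptors are widespread on neurons of the forebrain and cerebellum, where they open potassium channels and close calcium channels.

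The rho genes are neighbours on chromosome 4. In GRCm38, Gabrr2 (ENSMUSG00000023267) spans chr4:33062999-33095865 and Gabrr1 (ENSMUSG00000028280) chr4:33132521-33163588, both on the forward strand with 36.7 kb between them. Gabbr2 (ENSMUSG00000039809) spans chr4:46662305-46991873 on the reverse strand, 13.5 Mb further along. In the transcript with the longest coding sequence, Gabrr2 has 9 exons, Gabrr1 10 and Gabbr2 19. The 7 exons before the last have the same lengths in both rho genes. No exonic base of the 3 genes lies in an exon of another gene in the GENCODE M21 annotation.

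The rho coding sequences are alike enough in places for a short read to fit both. Gabrr1 and Gabrr2 were identical at 78.0% of 1401 aligned coding bases, against 71.6% for Gabrr1 and 69.6% for Gabrr2 with Gabrr3, the remaining rho gene. Their longest identical run was 81 bases, in exon 9 of Gabrr1 and exon 8 of Gabrr2, in the part that encodes the third transmembrane segment. It is shown within 90 coding bases of each gene, forward strand, 5′ to 3′, from chr4:33161706-33161795 and chr4:33085622-33085711, with the 3 bases that differ in capitals.
Gabrr1: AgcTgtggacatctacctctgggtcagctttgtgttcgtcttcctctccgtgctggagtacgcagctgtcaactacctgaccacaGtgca
Gabrr2: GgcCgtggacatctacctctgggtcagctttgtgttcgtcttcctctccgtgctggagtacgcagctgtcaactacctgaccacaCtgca
A read that falls wholly within this run, and so is no longer than 81 bases, cannot be assigned to 1 of the genes by sequence. The length of the reads was not taken into account. Over the whole transcripts, 114 of 1790 stretches of 31 bases in Gabrr2 also occurred in Gabrr1, and none occurred in any other gene's transcripts. In Gabbr2 the figure was 22 of 5720, shared with many genes. How reads that fit several places were treated was not stated.

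The starts of the 3 genes differ in base composition. RefSeq promoter windows (GRCm38.p6) run from 250 bases before to 50 after a gene's start, and all 3 genes had one. The Gabbr2 window held 46 CG pairs and 80.3% G or C, and 98.4% of 32851 windows held fewer CG pairs. The Gabrr1 window held 9 CG pairs and that of Gabrr2 only 2, beside a median of 7, and 14.1% of windows held fewer than Gabrr2. The bases upstream of both the RefSeq and the GENCODE start are shown for the genes with the fewest and the most, 5′ to 3′ along each gene's strand, with CG in capitals. They are chr4:33062862-33062998 for Gabrr2, forward strand, and chr4:46991874-46991964 for Gabbr2, reverse strand.
Gabrr2: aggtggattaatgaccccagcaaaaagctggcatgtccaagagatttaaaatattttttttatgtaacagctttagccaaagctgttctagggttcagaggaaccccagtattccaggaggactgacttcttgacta
Gabbr2: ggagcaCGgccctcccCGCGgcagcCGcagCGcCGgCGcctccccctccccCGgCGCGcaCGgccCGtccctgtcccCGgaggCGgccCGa
These letters are a description of the windows, and nothing in the RNA data bears on what binds there.

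Whether a row's name tells what was counted had to be settled first, and the answer depended on how it was measured. Row levels were compared with the positions of protein-coding exons in windows of 80 rows, after moving the rows along the chromosome. Scored by the share of a row's exonic bases that met a coding exon, 93.33% of 2547 windows correlated best more than 1000 bp away from the annotated place. At the 3 genes the best place was the annotated one in 4 of 4 windows over the rho pair (r = 0.736 to 0.848) and in 4 of 4 over Gabbr2 (0.681 to 0.775), and 1397 other rows were in register by the same rule. This score was 1 of 3 tried and was kept after the outcome of each was known, and under the other 2 scores the genes were not in register. Scored by the presence of any overlapping base, the best displacement was 2500 bp over the rho pair and -1000 to 2500 bp over Gabbr2. Scored by log2 of the overlapping bases + 1, it was -500 to 2500 bp and 0 to 500 bp, the latter in a stretch too short to count. At no displacement the correlations under those scores were 0.643 to 0.859. They are across rows, which are not independent replicates. The rows are called by their gene names below on the strength of the first score alone, and this holds for every neighbour, marker and like gene named.

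The labelled tissue was brain. All 9 chosen neuronal markers were in register by the first score, as 1400 of 56923 rows were, and none was at 0. These 9 were chosen with earlier results of these data known, so they do not check the tissue label. Their summed level ran from 36130 to 44240 normalized reads (reads divided by a size factor for each library) in aCSF and from 38520 to 46620 in L-fucose. The chosen markers of oligodendrocytes, microglia and retinal cells, and those fixed for astrocytes alone, were not in register. Those cells could not be checked by them. Of the choroid plexus markers 1 of 3 was in register, and of those of fibroblasts and vessels 1 of 3.

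Gabrr2 was lower in L-fucose than in aCSF. Values are in normalized reads. In aCSF 1 to 6 Gabrr2 had 50.42, 70.2, 72.04, 90.66, 60.58 and 144.38. In L-fucose 1 to 6 it had 24.8, 24.33, 29.35, 28.28, 22.7 and 28.78. Every L-fucose library lay below every aCSF library, the nearest pair being aCSF 1 and L-fucose 3, and aCSF 6 stood highest. The means were 81.4 ± 33.6 in aCSF and 26.4 ± 2.77 in L-fucose (SD, n = 6 each), a ratio of 0.324. The log2 fold change was -1.51 (SE 0.29, 95% interval -2.12 to -0.90), taken on log2(value + 1), where the added 1 shrinks the change of low genes. In sections of whole tissue, fewer cells with a transcript and less of it per cell cannot be told apart.

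**Figure D1:**
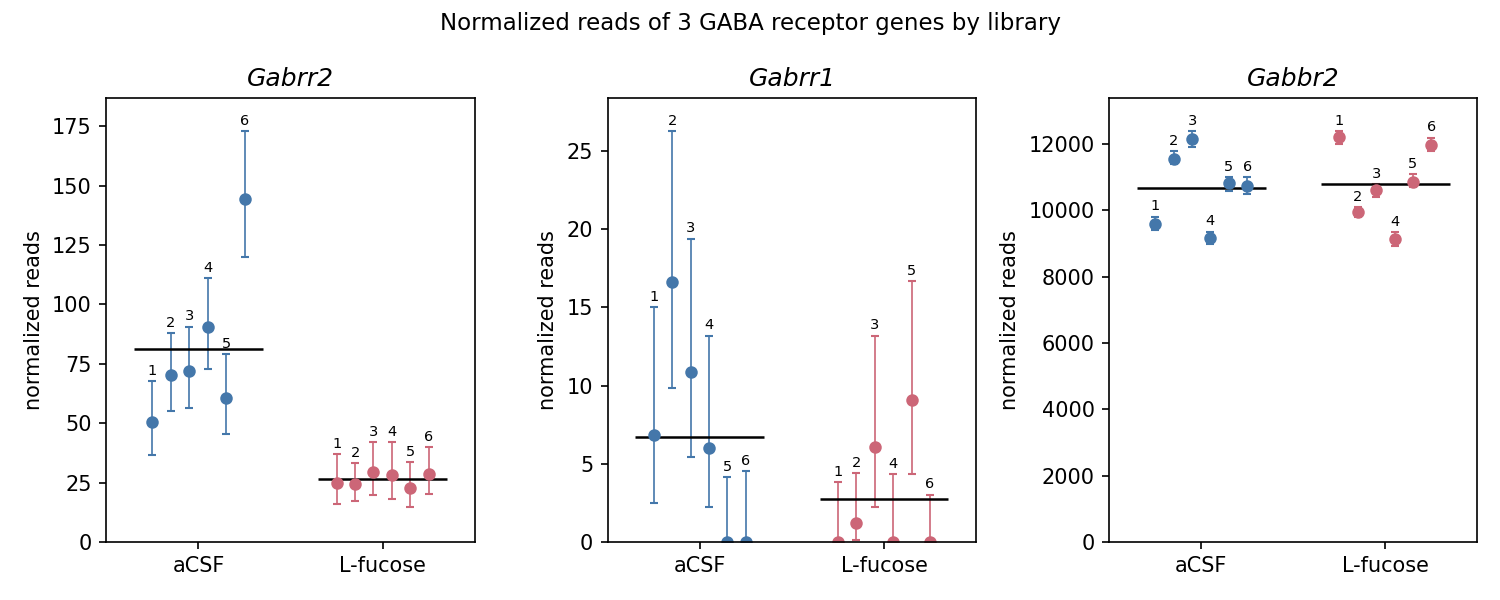
Normalized reads of Gabrr2, Gabrr1 and Gabbr2 in each library, by group. Points are libraries, numbered by replicate, bars are exact 95% Poisson intervals for counting error alone, and lines are group means. The 6 L-fucose values of Gabrr2 sit between 22.7 and 29.35, under the lowest aCSF value of 50.42, while the groups overlap for the other genes.

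The reads behind these values were few. Gabrr2 had 44 to 118 reads per library in aCSF, 455 in all, and 24 to 40 in L-fucose, 177 in all. The 95% Poisson interval of the lowest aCSF library ran from 36.6 to 67.7 normalized reads and that of the highest L-fucose library from 19.7 to 42.1, so the intervals of the nearest pair overlapped. Such intervals cover counting error only.

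The spread of Gabrr2 between libraries was wide in aCSF, through 1 library, and narrow in L-fucose. In aCSF the SD was 3.58 times what counting error alone gives, and in L-fucose it was 0.559 times. The coefficient of variation was 41.3% in aCSF, beside a median of 33.9% over 1059 rows of like level (mean within 25% of that of Gabrr2). Without aCSF 6, the library at 144.38, the aCSF values had an SD of 15.0, 1.78 times counting error, and a coefficient of variation of 21.8%, below the median of 33.1% over 1115 such rows. In L-fucose the coefficient was 10.5%, beside a median of 45.0% over 1206 such rows, of which 0.0829% had a lower one. The L-fucose values were thus closer together than their read numbers alone give on average. Leaving out 1 L-fucose library at a time kept its coefficient of variation between 8.70% and 11.2%. Gabrr2 was chosen on a contrast that uses these same values, so its place among rows of like level is a description. How often counting error alone gives so small a spread in a group of this size was not tested. The difference in spread between the groups was not tested either. Without aCSF 6 the log2 fold change was -1.33.

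**Figure D2:**
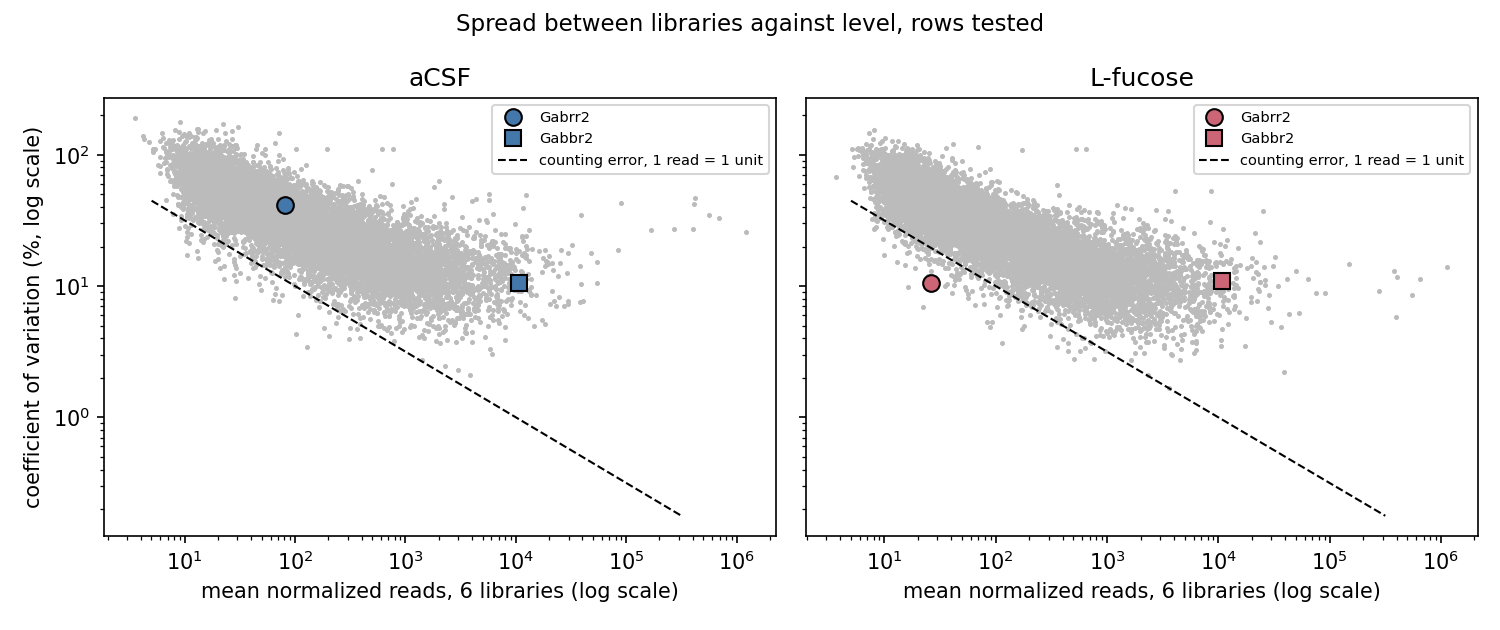
Coefficient of variation against mean normalized reads in aCSF (left) and L-fucose (right), both axes on a log scale. Grey points are rows tested, marked points are Gabrr2 and Gabbr2, and the dashed line is the counting error where 1 normalized unit is 1 read. Gabrr2 lies at 41.3% in aCSF and at 10.5% in L-fucose, where it is under the line.

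Over the whole table, limma called 0 of 10787 tested rows at an adjusted p under 0.05, or 0%, and the smallest Benjamini-Hochberg adjusted p was 0.498. Before adjustment, 643 rows (5.96%) had a p under 0.05. Every L-fucose library lay below every aCSF library in 15 rows, or 0.139%, Gabrr2 among them, and above in 16 rows, or 0.148%. As Gabrr2 was chosen on this contrast, its place among them is no separate evidence. A log2 fold change of -1 or lower was found in 158 rows, or 1.46%. Of all 10787 tested rows, 30 had a lower fold change than Gabrr2, and of the 457 in register 1 did.

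Gabrr1 was near the limit of detection. In aCSF 1 to 6 it had 6.87, 16.63, 10.86, 6.04, 0 and 0 normalized reads, from 41 reads in all. In L-fucose 1 to 6 it had 0, 1.22, 6.07, 0, 9.08 and 0, from 18 reads in all. The groups overlapped, and both had libraries at 0, aCSF 5 and 6 and L-fucose 1, 4 and 6. A count of 0 allows up to 3 reads, which is 2.47 to 3.67 normalized reads in these 5 libraries. The means were 6.73 ± 6.42 and 2.73 ± 3.90 (SD, n = 6 each).

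Gabrr1 did not pass the filter on low values, unlike the other genes. Fitted with every row above 0, its log2 fold change was -1.03 with an interval from -3.05 to 0.99, wide enough to hold a fall as large as that of Gabrr2, no change, or a rise. Both aCSF libraries at 0 were aCSF 5 and 6, which had 14340 and 14856 rows above 0 against 16514 or more elsewhere. They also had the highest shares of reads in rows named as mitochondrial genes, 41.94% and 44.85%, beside 40.52% in L-fucose 6. The position check did not cover those rows. Without aCSF 5 and 6 the Gabrr1 log2 fold change was -2.16, with an interval from -4.17 to -0.15. That interval no longer held 0, so these libraries decide what it covers. The log2 fold change of Gabrr2 was then -1.37, with aCSF at 70.8 ± 16.4 (SD, n = 4).

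Gabbr2 had the same level in both groups within its spread. In aCSF 1 to 6 it had 9601, 11564, 12161, 9167, 10817 and 10723 normalized reads. In L-fucose 1 to 6 it had 12208, 9961, 10623, 9140, 10862 and 11977. The groups covered nearly the same range, and 3 of 6 L-fucose libraries lay below the aCSF median. The means were 10670 ± 1135 and 10800 ± 1172 (SD, n = 6 each), from 7756 to 16378 reads per library. The log2 fold change was 0.02 (SE 0.09). Its interval ran from -0.18 to 0.21, or from 11.6% lower to 15.7% higher. The interval was narrower than most, with a width of 0.19 either side beside a median of 0.52 over all rows tested. Leaving out 1 library at a time moved the value between -0.03 and 0.06, so its sign was not fixed.

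Per length, the 3 genes spanned a wide range of levels. Divided by exonic length, Gabbr2 had 1596 ± 170 normalized reads per kb in aCSF and 1615 ± 175 in L-fucose (SD, n = 6 each). Gabrr2 had 38.7 ± 16.0 and 12.5 ± 1.32, and Gabrr1 2.945 ± 2.81 and 1.193 ± 1.71. Gabbr2 was 41.3 times Gabrr2 in aCSF and 129 times in L-fucose, and Gabrr2 13.1 times Gabrr1 in aCSF. The order was Gabbr2, Gabrr2, Gabrr1 in every library, with no overlap between neighbours in it. Among 478 protein-coding rows in register, Gabbr2 ranked 23, Gabrr2 324 and Gabrr1 393 by reads per kb over all libraries, and the median was 80.3.

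The genes tested around the rho pair had smaller fold changes than Gabrr2. Of the 10 rows nearest to the pair, 5 on each side, 6 were tested, and 0 passed in limma. Their log2 fold changes were negative in 5 and positive in 1, with a median of -0.115 beside 0.014 over all rows tested. Ube2j1, a ubiquitin-conjugating enzyme of the endoplasmic reticulum whose gene ends 10.6 kb before Gabrr2, was at -0.11 (interval -0.28 to 0.06). Rragd, a GTPase of the amino acid sensing machinery, was at -0.03 (-0.21 to 0.15). On the far side, Pm20d2 was at -0.64 (-2.10 to 0.81) with a mean of 15.8 normalized reads.

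Srsf12, a splicing factor, had 632 ± 74.8 in aCSF and a log2 fold change of -0.31 (-0.60 to -0.02; limma adjusted p 0.827), and Pnrc1, a coregulator of nuclear receptors, was at -0.12. None of the 6 intervals held the value of Gabrr2 except that of Pm20d2. Around Gabbr2, 5 of 10 rows were tested, 4 negative and 1 positive, with a median of -0.12, and 0 passed. The nearest, Tbc1d2, a regulator of Rab GTPases 12.1 kb away, was at -0.28 (-0.60 to 0.04), and Anks6, a protein of primary cilia, at -0.03.

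**Figure D3:**
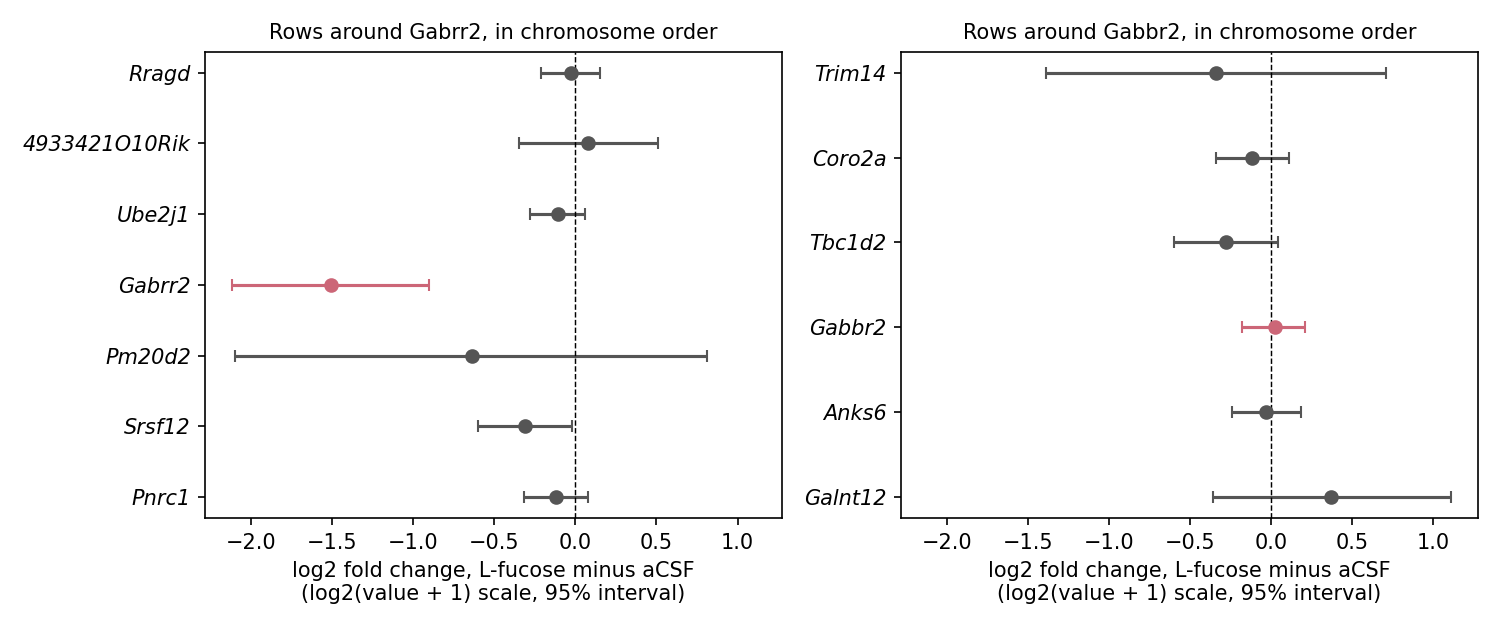
Log2 fold changes (L-fucose minus aCSF, from log2(value + 1)) of the tested rows around Gabrr2 (left) and Gabbr2 (right) in chromosome order. Points are limma estimates, bars are 95% intervals, and the genes of interest are in red. Gabrr2 lies at -1.51 among neighbours between -0.64 and 0.08, and Gabbr2 at 0.02.

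The other genes of GABA signalling could not be read by name. A list of 40 covered the remaining receptor subunits, the enzymes that make and break down GABA, its transporters, the chloride cotransporters and receptor partners. All 40 had rows in the table, but 0 were in register, so their values may belong to other transcripts. The row named Gabbr1, the partner of Gabbr2, and that named Gabrr3 were listed at 0 in all libraries, as were 3 others, which says nothing of those genes here. Of the list, 19 rows were tested and 0 passed in limma, where 0% of all rows did. Fold changes were positive in 14 and negative in 5, from -1.07 to 1.04, with a median of 0.05 beside 0.014 over all rows. At an unadjusted p under 0.05 the count was 0 of 19, beside 5.96% of all rows.

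Among the chosen markers of other cells were 3 genes of motile cilia, which ependymal cells lining the ventricles carry. All 3 were in register and none was at 0, and their log2 fold changes were Spef2 -1.30, Cfap206 -0.76 and Capsl -0.80. None passed in limma (adjusted p 0.775, 0.819 and 0.827). Their summed level ran from 259.4 to 410.6 normalized reads in aCSF and from 133.3 to 235.2 in L-fucose, without overlap. Of all tested rows 0.139%, and of those in register 0.875%, had every L-fucose library below every aCSF library. None of the 3 genes was among them singly. These shares are for single rows, and no share was worked out for sums of 3 rows. The 3 genes were chosen with earlier results of these data known, so the gap between the sums is a description. Prlr, high in choroid plexus and the only marker of it in register, was at -0.57 (interval -1.18 to 0.03). Ptprz1, a receptor phosphatase of glia and their precursors, was at -0.30 (-0.49 to -0.11). Fut9, listed with it, was at -0.23 (-0.49 to 0.04). The neuronal sum given above overlapped between groups, but Basp1 made up most of it, with a mean of 23060 in aCSF out of 39650. Of the neuronal genes, 6 had positive and 3 negative fold changes, and Penk, which encodes the enkephalin precursor, was at 0.61 (0.20 to 1.03), its 6 L-fucose values all over the median of aCSF, and did not pass (limma adjusted p 0.827). The fibroblast collagen gene Col1a2 was at 0.24 (-0.05 to 0.54). The part of these cells in the Gabrr2 difference was not tested.

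Within the groups, rows were ranked by how alike they varied to Gabrr2. Likeness was the Spearman correlation over 12 libraries between deviations from the group medians, for 456 other tested rows in register. It is a description of the same libraries. In L-fucose the SD of Gabrr2 was 0.559 times counting error, so the order of its values there cannot be told from counting error. Named here are the ends of the list of correlations, and how far such ends reach by chance was not tested. The highest were Smc2os, an antisense transcript, at 0.88, the ubiquitin-conjugating enzyme gene Ube2h at 0.80, the RNA polymerase I subunit gene Polr1e at 0.73, and Runx1t1, a transcriptional corepressor, and Alg2, a mannosyltransferase of N-glycan synthesis, both at 0.70. The lowest were 4930412C18Rik at -0.79, Ankrd6 at -0.78 and C9orf72 at -0.71. These 5 most alike genes had log2 fold changes between groups of 0.67, 0.00, -0.01, -0.06 and -0.01, none of them near that of Gabrr2. As the strand setting of the counts is not known, reads of Smc2os cannot be told from those of a gene on the other strand.

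The fold changes of Gabrr2 and Gabbr2 kept their places under the alternatives tried. Over 26 other ways of processing, Gabrr2 lay between -1.63 and -1.33 and Gabbr2 between -0.03 and 0.06. DESeq2, the tool the submitters' notes name, called 1 row of the whole table, and that row was Gabrr2, whereas limma, limma-voom and edgeR called 0. As the gene was chosen on this contrast, the call is no separate evidence.

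**Figure D4:**
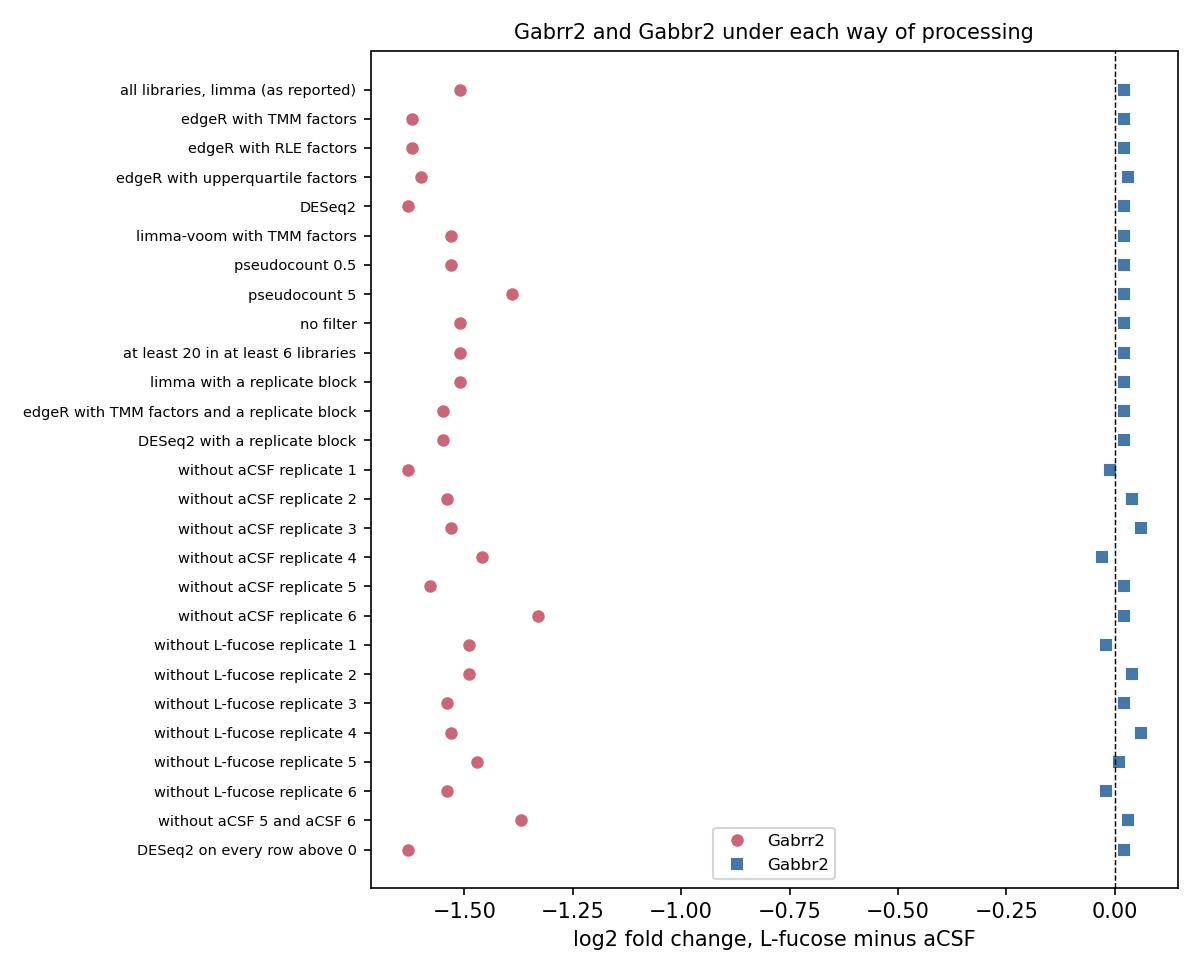
Log2 fold change, L-fucose minus aCSF, of Gabrr2 (circles) and Gabbr2 (squares) under each tool, filter, pseudocount and set of libraries. The Gabrr2 points lie between -1.63 and -1.33 and the Gabbr2 points between -0.03 and 0.06, around the dashed line at 0.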

How the data were processed

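Poly-A RNA was sequenced on an Illumina platform, per the labels' protocols. Tools named in the submitters' processing notes, with mm10 as the build, are featureCounts 2.0.3, HISAT2 2.2.1, Trimmomatic 0.39 and DESeq2 2.11.40.8. No annotation release or strand setting is stated. The authors deposited a normalized signal: each library's gene reads over its own size factor. That was read from the values, as 100% of them were whole multiples of 1 read within 0.01 reads, and reads were recovered on that basis.

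Rows were matched to GENCODE M21 (GRCm38, the assembly of mm10), with a symbol for 52073 of 56923. Register was judged by correlating row levels with overlap with protein-coding exons in windows of 80 rows, after displacing rows by up to 600 kb in steps of 500 bp. Rows were in register where every window over them fitted best within 1000 bp of none, in stretches of at least 120 rows. Of 3 overlap scores tried (share of bases, presence, log2 of bases + 1), the share was kept after all outcomes were seen. It put 1400 rows in register, the 3 genes among them, against 140 and 400 rows without them.

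Tested rows had 10 or more in 6 or more libraries. The test used limma 3.58.1 on log2(value + 1), with an intensity trend and no term but group, two-sided. Benjamini-Hochberg adjustment was over all rows tested, with a threshold of 0.05. The test was also run on simulated data, but the outcome is not given here, so its power is not stated. Gabrr1, which failed the filter, was fitted among all rows above 0. Alternatives were edgeR 4.0.16 and DESeq2 1.42.0 on recovered reads, limma-voom, other pseudocounts and filters, a replicate block and libraries left out. R 4.3.3, Python 3.11.15, scipy 1.17.1 and Biopython 1.88 were used.

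The genes, lists and tests were chosen with earlier results of these data known. Named were the 3 genes, the 5 rows on each side of each locus, list members in register and the rows most and least like Gabrr2.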

Additional observations from a re-analysis of the deposited data

Results flagged for a closer look

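In 82 groups of 6 values examined, 4 held a library far from the other 5 by Dixon's criterion, where about 5% are expected by chance. None of them was a value of the 3 receptor genes. Smc2os was at 57.56 normalized reads in L-fucose 6 while the remaining L-fucose libraries held 21.79 to 26.31. Ptprz1 was at 5845 in L-fucose 6 against 4603 to 5025. Runx1t1 was at 293.1 in L-fucose 2 against 358.2 to 393.9, and Anks6, next to Gabbr2, at 874.4 in L-fucose 4 against 650.7 to 731.8.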

How the results depend on the processing

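limma called 0 rows of the whole table, as did edgeR under its TMM, RLE and upper-quartile scalings (602 to 616 rows at an unadjusted p under 0.05), limma-voom, the other pseudocounts and filters, and each fit without 1 library (0 to 0 rows). DESeq2 called 1 row, Gabrr2, among the filtered rows and also 1, the same gene, on every row above 0, a choice added after the data were seen. With a replicate block DESeq2 called 9 rows, 3 higher and 6 lower, Gabrr2 among them, while limma and edgeR with the block called 0. The cause of these differences between tools was not tested. The labels use the names WT1 to WT6 in both groups and do not say whether a shared number means a shared animal. Same-numbered libraries deviated together with correlations of -0.168 to 0.17, and only 2 of 12 libraries correlated best with their own number. The row named Ddx3y was high in aCSF 4 but not in L-fucose 4, and in L-fucose 3 but not in aCSF 3. The numbers were therefore not taken to pair samples. With the block the log2 fold change was -1.51 for Gabrr2 and 0.02 for Gabbr2 in limma, and -1.55 for Gabrr2 in edgeR. Leaving out 1 library gave -1.63 (without aCSF 1) to -1.33 (without aCSF 6) for Gabrr2, -0.03 to 0.06 for Gabbr2 and -1.48 to -0.65 for Gabrr1. Over all 17 alternatives that gave a value, Gabrr1 ran from -2.16 (without aCSF 5 and 6) to -0.54 (pseudocount 5), always negative, which its few reads do not make a measurement of direction. Gabrr1 had no value under edgeR, limma-voom, DESeq2 on filtered rows or the stricter filter on low values. The GABA list had 0 calls under 26 alternatives, 0 to 0 without 1 library. The position check was the choice the names rest on: 1400 rows were in register by the share of bases, 140 by presence and 400 by log2 of bases + 1, both added after the data were seen, and the 3 genes were among the first only; the cause was not tested. Depth limits Gabrr1 most, with 0 to 18 reads per library.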

Other observations

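Of the 457 tested rows in register, 4, or 0.875%, had every L-fucose library below every aCSF library, beside 15 of all 10787 tested rows, or 0.139%. Rows in register were not matched to the rest on level, and the difference between these shares was not tested. Besides Gabrr2 they were Abca1, a cholesterol efflux transporter, at a log2 fold change of -0.48 (interval -0.73 to -0.24), Tmem245 at -0.24 (-0.42 to -0.05) and Wac, an adaptor of histone ubiquitination, at -0.19 (-0.35 to -0.02). None passed in limma (adjusted p 0.498 for Abca1 and 0.827 for Tmem245 and Wac). The 3 besides Gabrr2 were named after their values were seen, and their names rest on the same position check as the receptor genes.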
